A study of Gallus gallus with 12 samples.

Results

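The MYC family and the MAX network were described in RNA sequencing libraries of chicken retina and of retinal cell lines that overexpress human MYCN. The members are the transgene hMYCN and 9 chicken genes, MYCN, MYC, MYCL, MAX, MXD1, MXD4, MXI1, MNT and MLX. They were taken by name from a table of 24358 genes, and all 10 were among the 15284 genes with at least 10 reads in at least 3 libraries. GFP, which is carried by the same vector, is given beside hMYCN.

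The study has 12 libraries, 3 in each of 4 groups. Control E14 retina was central retina of White Leghorn embryos, dissected at embryonic day 14 from eyes that had not been electroporated. The DMC cells were grown from White Leghorn retinas electroporated at embryonic day 3.5 with a piggyBac vector, in which the CAG promoter drives human MYCN and GFP in a polycistronic unit. Young DMC cells (DMC8, DMC9 and DMC10) had been less than 4 weeks in culture, and old DMC cells (DMC1, DMC2 and DMC3) more than 200 days. T58A DMC cells (DMC4, DMC5 and DMC6) had also been cultured for more than 200 days, and their vector carries MYCN with alanine in place of a threonine. The CAG promoter is not restricted to a retinal cell type, and each line gave 1 library. The sources used here do not say that the control retinas came from separate animals, so p values measure the spread between these libraries.

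MYC, MYCN and MYCL proteins are basic helix-loop-helix leucine zipper transcription factors, which bind E-box DNA as dimers with MAX and raise the expression of genes for growth, ribosome production and division. MXD1, MXD4, MXI1 and MNT also pair with MAX, but recruit SIN3 and histone deacetylases and repress. MLX pairs with MLXIP and MLXIPL, glucose-responsive activators, and with some of the repressors. In the developing retina MYCN is expressed in dividing progenitors. The threonine replaced in T58A belongs to the phosphorylated motif that the ubiquitin ligase subunit FBXW7 reads before MYC proteins are degraded.

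The libraries held 20984957 to 35088450 recovered reads (read pairs on genes). Levels are given as normalized counts, that is reads scaled by library total and TMM factor, and are compared between libraries and not between genes. Summed photoreceptor markers (7 of 9 in the table, CRX not analysed here) reached 50000 to 59900 normalized counts in retina and 40900 to 76500 in 7 of the 9 DMC lines, but 17600 in DMC4 and 17300 in DMC6. Markers of ganglion, amacrine and horizontal cells summed to 26300 to 31000 in retina and 696 to 3380 in the lines, where 3 to 7 of 11 rows were at 0. Proliferation markers summed to 1140 to 1420 in retina and to 25000 to 60100 in 7 lines, with 9520 in DMC4 and 18700 in DMC6. Pigment epithelium markers summed to 187 to 264 in retina and 23400 to 73100 in the lines. Of these 5 genes, 1 was at 0 in DMC9, DMC10, DMC2, DMC3 and DMC6, and a sum is set mostly by its highest genes. Blood markers summed to 3490 to 11700 in retina and 408 to 2260 in the lines. Reads from genes on chromosome W, which only female birds carry, took 0.171% to 0.245% of all reads in 5 libraries and 0.00438% to 0.0185% in the other 7. The 5 were retina replicate 3, DMC10, DMC1, DMC2 and DMC3. All 3 old lines were thus in the first set and all 3 T58A lines in the second. This difference and the MYCN variant cannot be told apart between those groups. The young lines and the retina libraries were mixed, so that old and young lines also differ in part in chromosome W reads. Of the 9 chicken members, 0 lie on chromosome W or Z. In bulk RNA, fewer cells of a type and less RNA per cell cannot be told apart.

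The transgene checks the labels. hMYCN had 0 reads in each of the 3 retina libraries. It reached 167800 normalized counts in DMC8, 270500 in DMC9 and 205400 in DMC10. The old lines held 249900 in DMC1, 258300 in DMC2 and 313600 in DMC3, and the T58A lines 196400 in DMC4, 61790 in DMC5 and 200400 in DMC6. Every line was far above retina, and DMC5 was the lowest of the 9. Set against 3 reads per library in retina, the mean was at least 80100-fold higher in young, at least 102000-fold higher in old and at least 57100-fold higher in T58A DMC cells. hMYCN took 0.204% of the reads in DMC5 and 0.609% to 1.07% in the other 8 lines.

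**Figure D1:**
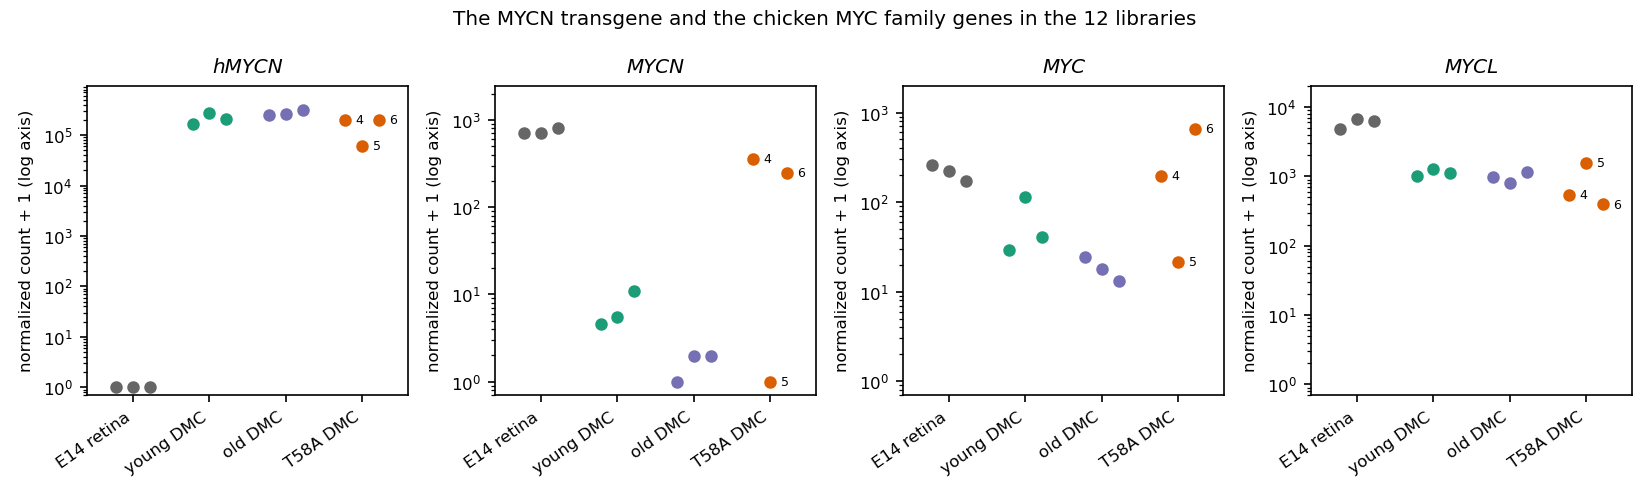
Normalized count plus 1 (log axis) of hMYCN and chicken MYCN, MYC and MYCL in the 12 libraries, 1 point per library, with the T58A points numbered by DMC line. hMYCN is at 0 reads in retina and between 61790 and 313600 in the DMC lines, while chicken MYCN is high in retina, DMC4 and DMC6 and at 0 to 9.98 in the other 7 lines.

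Between the DMC groups, hMYCN was 0.37 higher on the log2 scale in old than in young lines (two-sided exact permutation test, p = 0.3). It was lower in T58A than in old lines (log2 difference −1.02, exact permutation p = 0.1), with no overlap between the groups. The difference between T58A and young lines was −0.65 (exact permutation p = 0.4). With 3 lines against 3 the smallest possible p is 0.1, and the adjusted p of the 6 transgene comparisons were 0.3 to 0.4. The T58A difference rested largely on DMC5: without it, the log2 difference of T58A from old lines was −0.46.

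GFP followed hMYCN. It had 1, 1 and 2 reads in the retina libraries, and 257100 to 478500 normalized counts in 8 lines, with 98290 in DMC5. The ratio of hMYCN to GFP reads needs no scaling between libraries. It was 0.645 ± 0.0145 in young, 0.655 ± 0.0286 in old and 0.637 ± 0.014 in T58A lines (SD, n = 3 each), and 0.626 to 0.683 over the 9 lines. The differences between groups in this ratio were 0.02, −0.04 and −0.02 on the log2 scale for old against young, T58A against old and T58A against young (exact permutation p = 0.6, 0.6 and 0.8). Over the 9 lines, GFP had the highest Pearson correlation with hMYCN of all genes searched (r = 0.998, n = 9 lines that share the library and its depth).

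**Figure D2:**
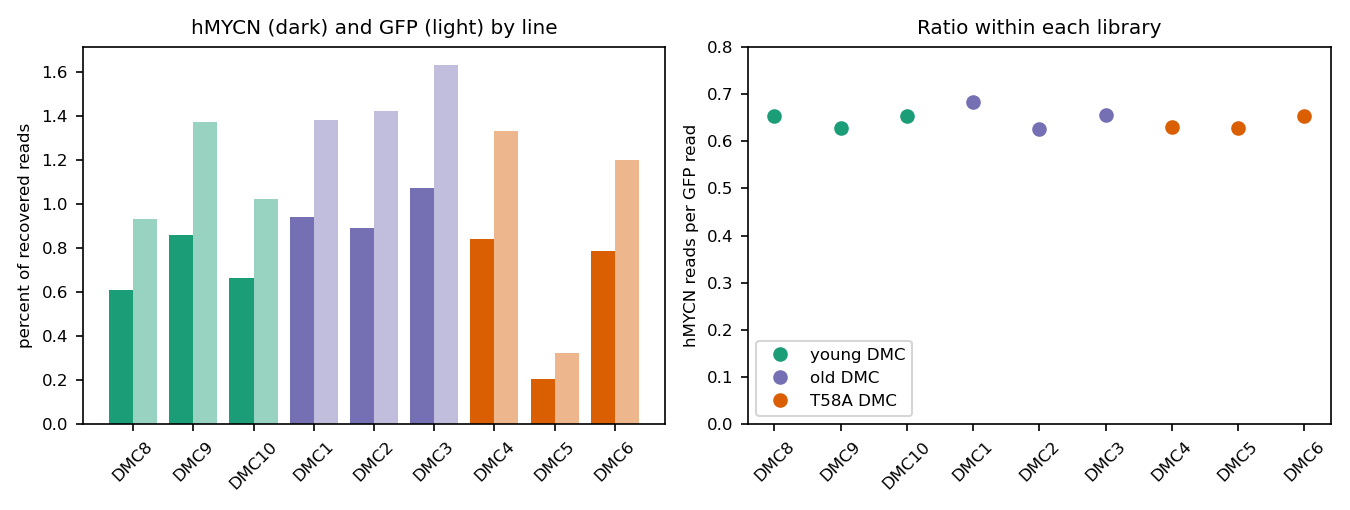
Left, percent of recovered reads taken by hMYCN (dark bars) and GFP (light bars) in each DMC line; right, hMYCN reads per GFP read. DMC5 has 0.204% hMYCN against 0.609% to 1.07% in the other lines, while the ratio stays between 0.626 and 0.683.

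In the comparison of young DMC cells with retina, 4 of the 10 members passed both criteria, an adjusted p of at most 0.05 (limma, over all genes tested) and a log2 fold change of at least 1 in either direction. hMYCN and MXI1 rose, and MYCN and MYCL fell. Over all genes tested, 43.5% were called in this comparison. Old DMC cells against retina gave 5 called members, hMYCN and MXD4 higher and MYCN, MYC and MYCL lower, where 43.8% of all genes were called. T58A DMC cells against retina gave 3, hMYCN and MXD4 higher and MYCL lower, where 44.5% of all genes were called. Each count of members here, also that of groups that do not overlap, includes hMYCN. Retina cannot carry the transgene, so its call and its lack of overlap were fixed by the design. Among the 9 chicken members the share called was lower than the counts in 10 show. Of all genes 20.5%, 20.3% and 19.6% were called higher and 23%, 23.5% and 24.8% lower in young, old and T58A lines. The groups did not overlap for 9 members in the young, 7 in the old and 7 in the T58A comparison, where 73.7%, 69.3% and 60.9% of all genes did not overlap. The 3 comparisons share the retina libraries.

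The 9 chicken members had a median log2 fold change against retina of −0.35 in young, −0.27 in old and −0.42 in T58A lines, where that of all genes was −0.03, −0.05 and −0.10. These values move with the scaling. Without TMM factors, the medians of all genes were −0.45, −0.38 and −0.32, and the young lines had 2200 genes called higher and 4653 lower in place of 3137 and 3512. For old lines the split became 2316 and 4494 in place of 3106 and 3588, and for T58A lines 2424 and 4349 in place of 2999 and 3795. With the deposited values as they stand the split was 2489 and 4060 for young and 2076 and 4694 for T58A lines. MYCN and MYCL in young lines, MYCN, MYC and MYCL in old lines and MYCL in T58A lines passed both criteria under all 22 alternatives, scalings included.

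Chicken MYCN (ENSGALG00000016462) was the member with the widest spread over the DMC lines. Retina held 708, 709 and 815 normalized counts. The young lines held 3.53 in DMC8, 4.49 in DMC9 and 9.98 in DMC10. The old lines held 0 in DMC1 and 0.939 in both DMC2 and DMC3, which is 0, 1 and 1 reads. All 6 of these lines lay far below retina, and the young lines lay above the old lines without overlap. The pooled reads put retina 125 times above the young lines (95% exact counting interval 78 to 215) and 1180 times above the old lines (326 to 9730). The intervals cover counting error only.

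On the log2 scale MYCN fell by 6.84 in young DMC cells (SE 1.69, limma adjusted p = 0.00553) and fell by 8.90 in old DMC cells (SE 1.69, limma adjusted p = 0.00113). At such low counts the fitted size depends on the pseudocount, and it ran from −10.61 to −6.15 in old lines over the alternatives. Between old and young lines the log2 difference was −2.06 (95% interval −5.77 to 1.65, limma adjusted p = 0.783). It rests on 17 reads in the 3 young lines and 2 in the 3 old lines. The fit shares 1 estimate of spread over the 4 groups, so the SE of 1.69 also holds the wide spread of the T58A lines. In a fit of the 6 libraries compared, the limma adjusted p was 1.02e-05 for young and 1.70e-05 for old lines against retina. The difference of old from young lines was called under 0 of 22 alternatives.

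The T58A lines were split in their MYCN level. DMC4 held 354 and DMC6 held 245 normalized counts (318 and 213 reads), and DMC5 held 0 reads. Retina was 2.1 times above DMC4 (95% counting interval 1.87 to 2.36) and 3.04 times above DMC6 (2.64 to 3.51). With the 0 reads of DMC5 set at 3 reads, retina was 207 times above DMC5. The log2 fold change of the group against retina was −4.07 (SE 1.69, limma adjusted p = 0.062), which did not pass the adjusted p. It passed under 5 of 22 alternatives, with voom weights (−4.27), a pseudocount of 10 (−2.95) or the deposited values as they stand (−4.27), and without DMC4 (−5.57) or DMC6 (−5.30). Without DMC5 the value shrank to −1.33 and was not called, and the limma adjusted p were 0.0186 to 0.162 over the alternatives.

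The reads of chicken MYCN did not follow those of the transgene. DMC3 had 334150 hMYCN reads and 1 MYCN read, and DMC1 had 259518 and 0. DMC5, with the fewest hMYCN reads of the lines (51712), also had 0 MYCN reads. DMC4 had 176210 hMYCN reads and 318 MYCN reads, so that MYCN reads came to 0.18% of hMYCN reads, and to 0.122% in DMC6. In the other 7 lines the observed share was at most 0.00486%. With the 0 MYCN reads of DMC1 and DMC5 set at 3 reads, the share would be 0.00116% and 0.0058%. These shares are of reads, without correction for transcript length, and serve only to compare the lines.

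MYC (ENSGALG00000033631), the widely expressed founder of the family, was also lower in young and old lines than in retina, but not in all T58A lines. Retina held 257, 222 and 170 normalized counts. Young lines held 28.3 in DMC8, 112 in DMC9 and 39.9 in DMC10, and old lines 23.1, 16.9 and 12.2 in DMC1, DMC2 and DMC3. In the T58A lines MYC was 195 in DMC4, 20.3 in DMC5 and 658 in DMC6. Every young and old line was below every retina library, and DMC9 was the highest of these 6 lines. DMC4 lay within the retina range, DMC6 above it and DMC5 below it.

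MYC fell by 3.59 on the log2 scale in old DMC cells (SE 1.00, limma adjusted p = 0.0106). This SE is also shared by the 4 groups and holds the wide spread of the T58A lines. In young DMC cells the log2 fold change was −2.06 (SE 1.00, limma adjusted p = 0.104), which passed in a fit of the 6 libraries compared (limma adjusted p = 0.00872) and in fits that left out DMC5 or DMC6. In T58A DMC cells it was −0.61 (SE 1.00, 95% interval −2.80 to 1.58, limma adjusted p = 0.627), and it turned to 0.75 without DMC5.

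MYCL (ENSGALG00000024047), the third family gene, first known from amplification in lung carcinoma, was lower in all 9 lines than in any retina library. Retina held 4772, 6705 and 6342 normalized counts. The young lines held 1025, 1271 and 1119, the old lines 983, 797 and 1144. The T58A lines held 545 in DMC4, 1562 in DMC5 and 394 in DMC6, so that DMC5 was the highest of the 9 lines and DMC6 and DMC4 the lowest. MYCL fell in all 3 comparisons. The log2 fold changes were −2.37 in young (SE 0.40, limma adjusted p = 5.23e-04), −2.61 in old (limma adjusted p = 2.90e-04) and −3.08 in T58A DMC cells (limma adjusted p = 9.00e-05).

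MAX, the shared partner, was at 779, 937 and 847 normalized counts in retina. It was at 592, 562 and 663 in DMC8, DMC9 and DMC10, at 735, 581 and 823 in DMC1, DMC2 and DMC3, and at 509, 1014 and 496 in DMC4, DMC5 and DMC6. Young lines were all below retina, old lines overlapped it, and DMC5 lay above every other library. The log2 fold changes against retina were −0.50 (95% interval −1.10 to 0.11), −0.27 (−0.88 to 0.34) and −0.42 (−1.03 to 0.18) in young, old and T58A lines. Their limma adjusted p were 0.155, 0.432 and 0.218. Without TMM factors the log2 fold changes were −0.92, −0.61 and −0.65 (limma adjusted p = 0.00849, 0.0562 and 0.043). With the deposited values as they stand they were −0.60, −0.22 and −0.79 (0.0864, 0.526 and 0.0292). In fits of the 6 libraries compared, the limma adjusted p were 0.0146, 0.245 and 0.319. MAX passed both criteria under 0 of 22 alternatives in each comparison.

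MXD1, a repressor partner of MAX linked to differentiation, was at 2022, 2268 and 2382 normalized counts in retina. The young lines held 1943, 1519 and 1791, the old lines 2077, 1603 and 1684, and the T58A lines 1533, 1821 and 1059. The young and T58A lines lay below retina without overlap, and DMC1 among the old lines overlapped it. The log2 fold changes were −0.35 and −0.32 in young and old lines (limma adjusted p = 0.192 and 0.226). In T58A lines it was −0.63 (limma adjusted p = 0.0273), under the fold criterion.

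**Figure D3:**
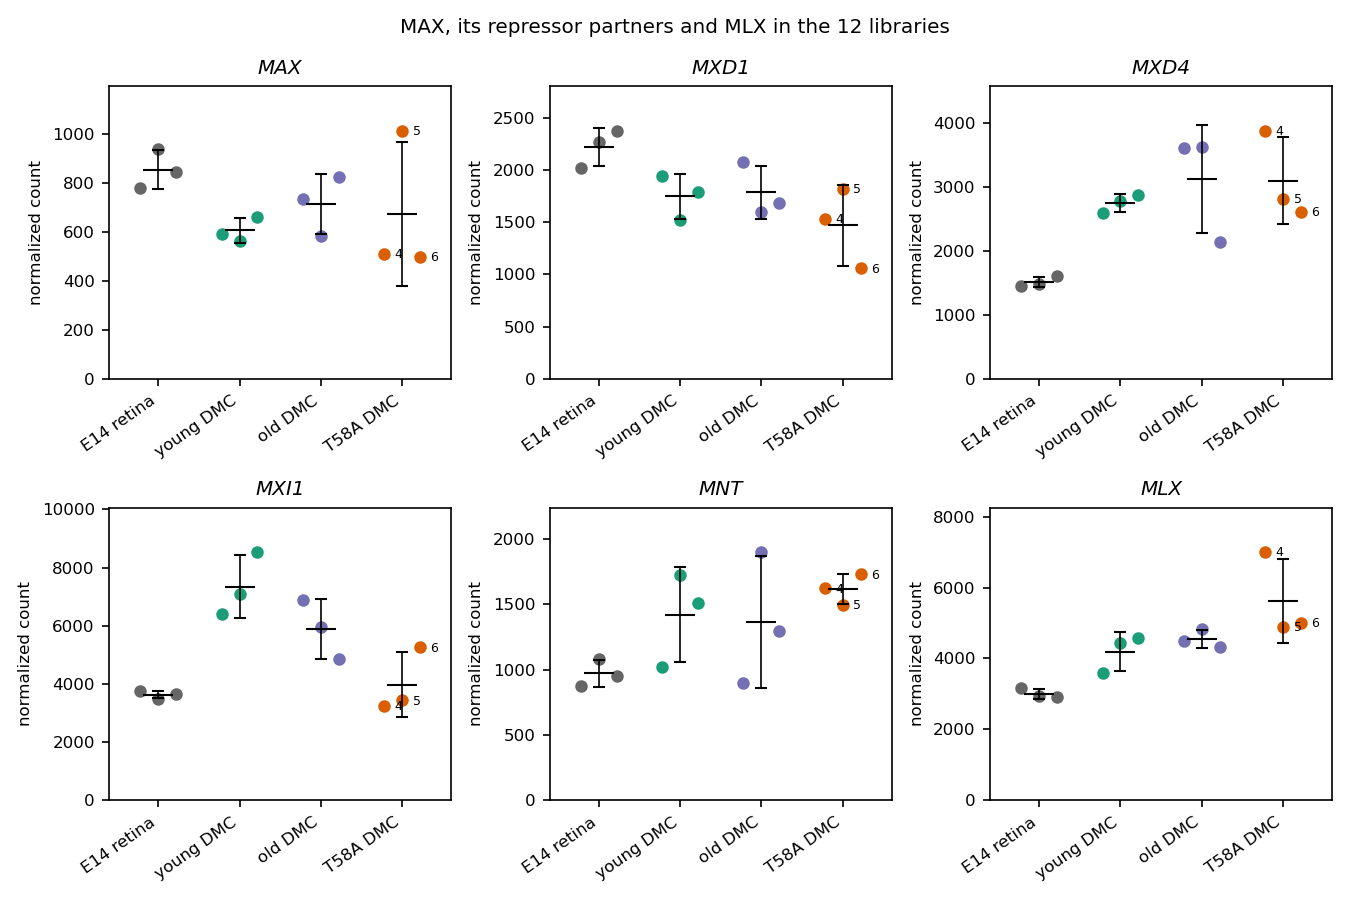
Normalized counts of MAX, MXD1, MXD4, MXI1, MNT and MLX in the 12 libraries, 1 point per library, with bars for the mean ± SD of 3 libraries and the T58A points numbered by DMC line. MXD4 and MLX lie above retina in all 9 lines, and MXI1 lies at 6414 to 8531 in young lines against 3232 to 5255 in T58A lines.

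MXD4, another MXD repressor, was higher in every DMC line than in retina. Retina held 1450, 1483 and 1608 normalized counts. The young lines held 2603, 2788 and 2877, the old lines 3608, 3625 and 2148, and the T58A lines 3888, 2812 and 2615. DMC3 was the lowest line and DMC4 the highest. The log2 fold change was 0.86 in young lines (SE 0.22, limma adjusted p = 0.00705), 1.01 in old lines (limma adjusted p = 0.00293) and 1.02 in T58A lines (0.00272). The latter 2 values lie just past the fold criterion, and both fell under it without TMM factors, at 0.67 and 0.78. They also fell under it with median-of-ratios factors, at 0.95 and 0.995. In old lines the value was 0.88 without DMC1 or DMC2, 0.98 without retina replicate 1 and 0.99 without retina replicate 2. In T58A lines it was 0.84 without DMC4 and 0.98 without retina replicate 1, and 0.65 with the deposited values as they stand. The young value also moved with the scaling. It was 0.44 without TMM factors (limma adjusted p = 0.168) and 0.76 with the deposited values as they stand (limma adjusted p = 0.0675). With median-of-ratios factors it was 0.80 (limma adjusted p = 0.0122).

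MXI1 (also an MXD repressor) was at 3737, 3484 and 3661 normalized counts in retina. It was at 6414, 7087 and 8531 in the young lines, at 6874, 5948 and 4841 in the old lines, and at 3232, 3428 and 5255 in the T58A lines. Young and old lines were all above retina at this scaling, and the T58A lines overlapped it. With reads scaled by library total alone, DMC3 lay within the retina range. MXI1 rose by 1.01 in young DMC cells on the log2 scale (SE 0.21, limma adjusted p = 0.00218). This value was 0.59 without TMM factors, 0.997 with the deposited values as they stand, 0.94 with median-of-ratios factors, 0.90 without DMC10 and 0.98 without retina replicate 2, each under the fold criterion. In old lines the log2 fold change was 0.68 (limma adjusted p = 0.0186). The old value was 0.35 without TMM factors (limma adjusted p = 0.222). It was 0.83 with the deposited values as they stand (limma adjusted p = 0.0257) and 0.625 with median-of-ratios factors (0.0282). In T58A lines the log2 fold change was 0.10 (95% interval −0.37 to 0.56, limma adjusted p = 0.723). The T58A value turned negative without TMM factors (−0.14).

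MNT, a MAX partner that opposes MYC in dividing cells, was at 877, 1081 and 953 normalized counts in retina. The young lines held 1019, 1726 and 1511, the old lines 899, 1899 and 1296, and the T58A lines 1621, 1497 and 1728. DMC8 and DMC1 overlapped retina, and the T58A lines did not. The log2 fold changes were 0.52 (limma adjusted p = 0.132), 0.43 (0.205) and 0.74 (0.0393), none past the fold criterion. MNT varied least within the T58A group, with a range of 0.21 on the log2 scale, and 95.8% of genes tested had a larger range.

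MLX, the dimer partner of MLXIP and MLXIPL, was at 3161, 2930 and 2916 normalized counts in retina. The young lines held 3575, 4430 and 4575, the old lines 4496, 4821 and 4325, and the T58A lines 7002, 4879 and 5014. All 9 lines were above retina, with DMC4 the highest. The log2 fold changes were 0.47 (limma adjusted p = 0.0398), 0.60 (0.0138) and 0.89 (0.00141), all under the fold criterion. They were 0.05, 0.26 and 0.66 without TMM factors.

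**Figure D4:**
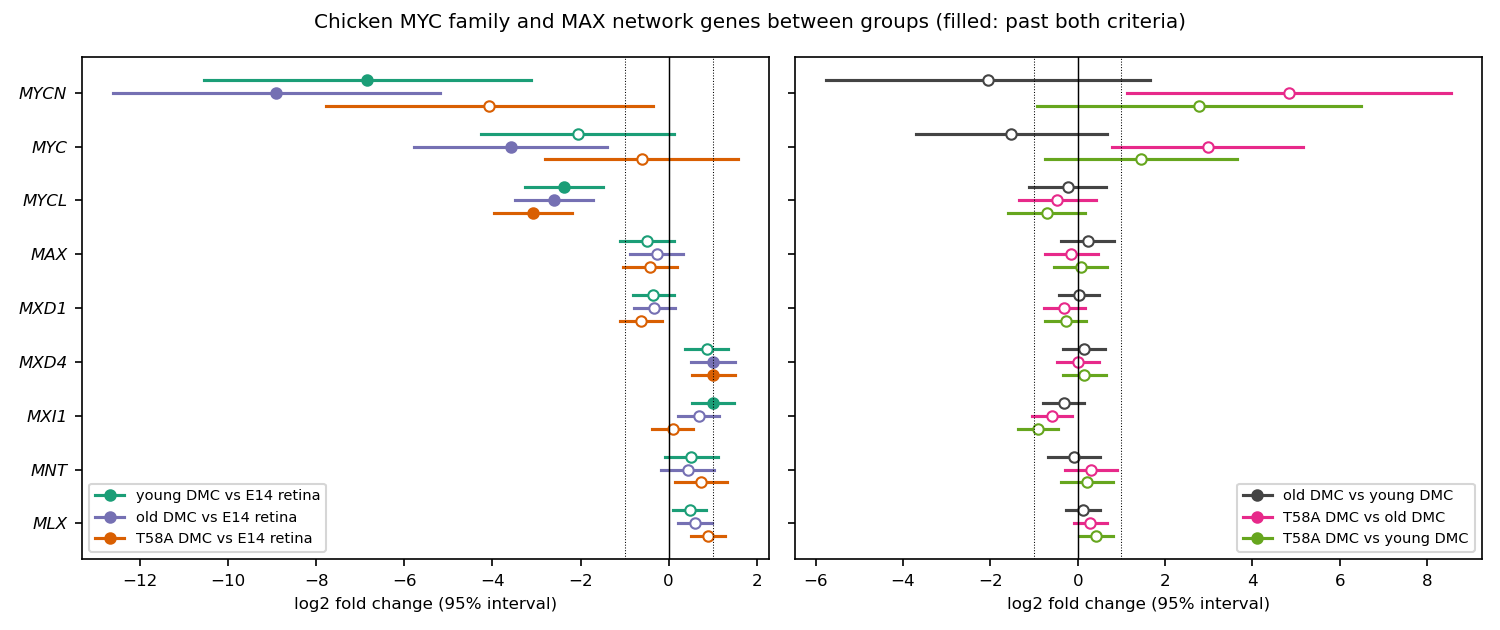
Log2 fold change with 95% interval (limma) of the 9 chicken members, for each DMC group against retina (left) and between DMC groups (right); filled points passed both criteria and dotted lines mark a log2 fold change of 1 in either direction. MYCL is filled in all 3 comparisons with retina, and 0 points are filled between the DMC groups.

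Old and young DMC cells differ in time in culture, and in part in chromosome W reads. Between them 0 of the 10 members were called with limma, 0 had an unadjusted p under 0.05 and 0 were called with voom weights. Of all genes tested, 0.196% were called and 9.34% had an unadjusted p under 0.05. The groups did not overlap for 2 members, MYCN and MYC, both lower in old lines, where 16.9% of all genes did not overlap. The 95% intervals of the log2 difference were −3.71 to 0.67 for MYC, −1.11 to 0.65 for MYCL, −0.38 to 0.83 for MAX and −0.26 to 0.51 for MLX. These intervals use the spread shared by the 4 groups, T58A lines included.

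T58A and old DMC cells differ in the MYCN variant and in chromosome W reads. Between them 0 members were called with limma or with voom weights, and 4 had an unadjusted p under 0.05. Of all genes tested, 0.0393% were called and 19.7% had an unadjusted p under 0.05. The groups did not overlap for hMYCN and MLX, 2 of 10, where 15.2% of all genes did not overlap. MYCN was 4.83 higher on the log2 scale in T58A lines (SE 1.69, limma adjusted p = 0.161) and MYC 2.97 higher (SE 1.00, limma adjusted p = 0.152). hMYCN and MXI1 were the other 2 with an unadjusted p under 0.05, at −1.02 and −0.59 (limma adjusted p = 0.18 and 0.17).

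These values depended on DMC5. Without it, 3 members were called between T58A and old lines, where 17.1% of all genes were called. MYCN was then 7.57 higher (limma adjusted p = 7.55e-05), MYC 4.33 higher (0.00212) and MYCL lower (log2 fold change −1.06, 0.0107). The same 3 members were called between T58A and young lines without DMC5, at 5.51, 2.81 and −1.29 (limma adjusted p = 1.73e-04, 0.0106 and 0.00277), where 22.7% of all genes were called. These fits rest on DMC4 and DMC6 alone for the T58A group.

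DMC4 and DMC6 also stood apart in the marker lists. The cone nuclear receptor RXRG was at 1710 normalized counts in DMC4 and 1311 in DMC6, against 13560 to 31910 in the other 7 lines and 8824 to 11860 in retina. The thyroid hormone receptor THRB was at 430 and 370, against 2074 to 7572 in the other lines. The proliferation markers were also the lowest in these lines, as given above. The part of these differences in the MYCN, MYC and MYCL levels was not tested. In the table DMC4 and DMC5 carry the name of one medium and DMC6 that of another. The protocol names a single medium for all lines, and an effect of the medium was not tested.

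T58A and young DMC cells differ in variant and time in culture, and in part in chromosome W reads. Between them 0 of the 10 members were called with limma or with voom weights, and 2 had an unadjusted p under 0.05. Of all genes tested, 6.17% were called and 27.1% had an unadjusted p under 0.05. The groups did not overlap for 2 members, MXI1 and MLX, where 24.2% of all genes did not overlap. MXI1 was lower in T58A lines (log2 fold change −0.91, SE 0.21, limma adjusted p = 0.0307), under the fold criterion, and the highest T58A line, DMC6 with 5255, lay below the lowest young line, DMC8 with 6414. It passed the fold criterion without DMC6 (−1.13, where 2.98% of all genes were called) and with the deposited values as they stand (−1.27). MLX was 0.41 higher (95% interval 0.03 to 0.80, limma adjusted p = 0.156).

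Over the 9 DMC lines the members fell into a wide range of variability. The SD of the log2 level was 3.20 for MYCN and 1.88 for MYC, and 0.451% and 6.57% of genes tested had a larger SD. It was 0.69 for hMYCN and 0.62 for MYCL, near the median of 0.63 over all genes. MAX (0.34), MXD1 (0.28), MXD4 (0.28), MXI1 (0.47), MNT (0.36) and MLX (0.26) were below that median. Within the T58A lines alone the range on the log2 scale was 8.47 for MYCN and 4.95 for MYC, against a median of 1.20 over all genes.

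The genes around the network were counted in 4 lists, and the counts are set beside the 43.5%, 43.8% and 44.5% of all genes called against retina in young, old and T58A lines. Of 14 further MAX network genes, 13 were tested, and 3 were higher and 2 lower in young lines, 4 and 2 in old lines, and 4 and 0 in T58A lines. Their median log2 fold changes were 0.48, 0.12 and 0.13, beside −0.03, −0.05 and −0.10 for all genes. MXD3, an MXD repressor found in dividing cells, rose from 5.09 ± 3.64 in retina to 112 ± 80.8 in young lines (SD, n = 3; log2 fold change 4.23, limma adjusted p = 5.95e-04), and by 3.88 and 3.78 in old and T58A lines. MLXIPL, which pairs with MLX, rose from 25.2 ± 8.69 to 462 ± 81.6 in young lines (4.17, limma adjusted p = 0.0127), and by 5.44 and 5.87 in the others.

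MLXIPL varied between lines, from 104 normalized counts in DMC1 to 6452 in DMC2 and 5233 in DMC4. MYCBPAP, named for its binding to MYCBP, also rose in all 3 comparisons (3.44, 3.22 and 2.44), and MLXIP in old and T58A lines (1.38 and 1.23). The corepressor SIN3B fell in young and old lines (−1.31 and −1.47), as did the ubiquitin ligase MYCBP2 (−1.47 and −1.08). These genes were named after their values were seen. Between T58A and young lines HDAC1, a histone deacetylase of the repressor complexes, was lower (1950 ± 951 against 4950 ± 912, log2 fold change −1.45, limma adjusted p = 0.0309), in a comparison where 6.17% of all genes were called. It was the only call of this list there, and 0 genes of the list were called with the deposited values, in the 6 libraries compared, or without any single retina or young library, DMC4 or DMC6. Over all 15284 genes, 0 were called in the 6 libraries compared.

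Of 18 MYC cofactors 15 were tested, with 1 called higher and 2 lower in each comparison with retina. RUVBL1, an ATPase that binds the MYC activation domain, rose by 1.52, 1.57 and 1.23 on the log2 scale (limma adjusted p = 1.14e-04, 9.12e-05 and 4.60e-04). The acetyltransferases EP300 (−1.22 and −1.38) and CREBBP (−1.25 and −1.12) fell in young and old lines, and EP400 (−1.03) and PAF1 (−1.16) in T58A lines, all named after their values were seen. The list medians were −0.10, −0.10 and −0.20. Without TMM factors 5 cofactors were called in young lines and 6 in old lines, where 6853 and 6810 of all 15284 genes were called.

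Of 23 genes for MYC protein stability 18 were tested, with 5 higher and 1 lower in young and old lines and 6 and 1 in T58A lines. AURKA, a mitotic kinase that shields MYCN from FBXW7, rose from 56.6 ± 11.8 in retina to 1960 ± 386 in young, 1720 ± 720 in old and 1470 ± 1240 in T58A lines (SD, n = 3). Its log2 fold changes were 5.09, 4.84 and 4.37 (limma adjusted p = 1.25e-05, 1.67e-05 and 3.18e-05). The mitotic kinase PLK1 rose by 5.16, 4.85 and 3.95. SKP2, STUB1 and USP36 were the other genes called higher in all 3, with SET in T58A lines.

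The genes that act on the motif changed in T58A did not pass the criteria. FBXW7 had log2 fold changes against retina of −0.42, −0.58 and −0.34 in young, old and T58A lines (limma adjusted p = 0.161, 0.0626 and 0.248). GSK3B, a kinase that phosphorylates that threonine, had 0.21, 0.17 and 0.26 (0.229, 0.323 and 0.149). The list medians were 0.07, 0.13 and 0.16.

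Of 20 known MYC target genes 16 were tested. In young lines 12 were higher and 0 lower, in old lines 11 and 0, and in T58A lines 11 and 1, where 20.5%, 20.3% and 19.6% of all genes were called higher. The list medians were 2.13, 2.13 and 2.14. This list too was chosen with earlier results of these data known. The proliferation markers given above were also higher in every line than in retina, and the part of that difference in the target levels was not tested. SRM, an enzyme of polyamine synthesis, rose from 967 ± 90.2 in retina to 5760 ± 1010 in young, 5780 ± 558 in old and 8900 ± 2490 in T58A lines (log2 fold changes 2.56, 2.58 and 3.17). TFRC, the transferrin receptor, rose by 3.36, 2.85 and 2.36, with 7771 normalized counts in DMC4 and 8081 in DMC6, against 11600 to 31120 in the other 7 lines.

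Not all targets rose: of the 16 tested, 4 were not called in young, 5 in old and 4 in T58A lines. NME1, a nucleoside diphosphate kinase, fell in T58A lines (74.2 ± 91.5 against 759 ± 70.6, log2 fold change −4.16, limma adjusted p = 0.00261). A near-identical gene copy could share its reads, which was not tested. Between T58A and young lines NME1 (−3.46, limma adjusted p = 0.0435) and the glycolytic enzyme LDHA (−3.62, limma adjusted p = 0.0228) were lower, both named after their values were seen, where 6.17% of all genes were called. Of the list, 0 genes were called there in the 6 libraries compared or without any single young line, DMC4 or DMC6. Over all 15284 genes, 0 were also called in those 6 libraries. With voom weights, with no filter beyond 1 read, or without DMC3 or any single retina library, 1 gene was called. LDHA was at 17600 ± 4350 normalized counts in retina, 87500 ± 20700 in young, 27700 ± 24400 in old and 7860 ± 4780 in T58A lines (SD, n = 3). DMC1 (3840) and all 3 T58A lines (4002 to 13210) lay below the lowest retina library (13880). Between old and young, and between T58A and old lines, 0 genes of the 4 lists were called with limma or voom weights, with 4 and 18 at an unadjusted p under 0.05. Of all genes, 9.34% and 19.7% were under it. Without DMC5, 2 to 6 genes of each list were called between T58A and old lines, where 17.1% of all genes were called.

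**Figure D5:**
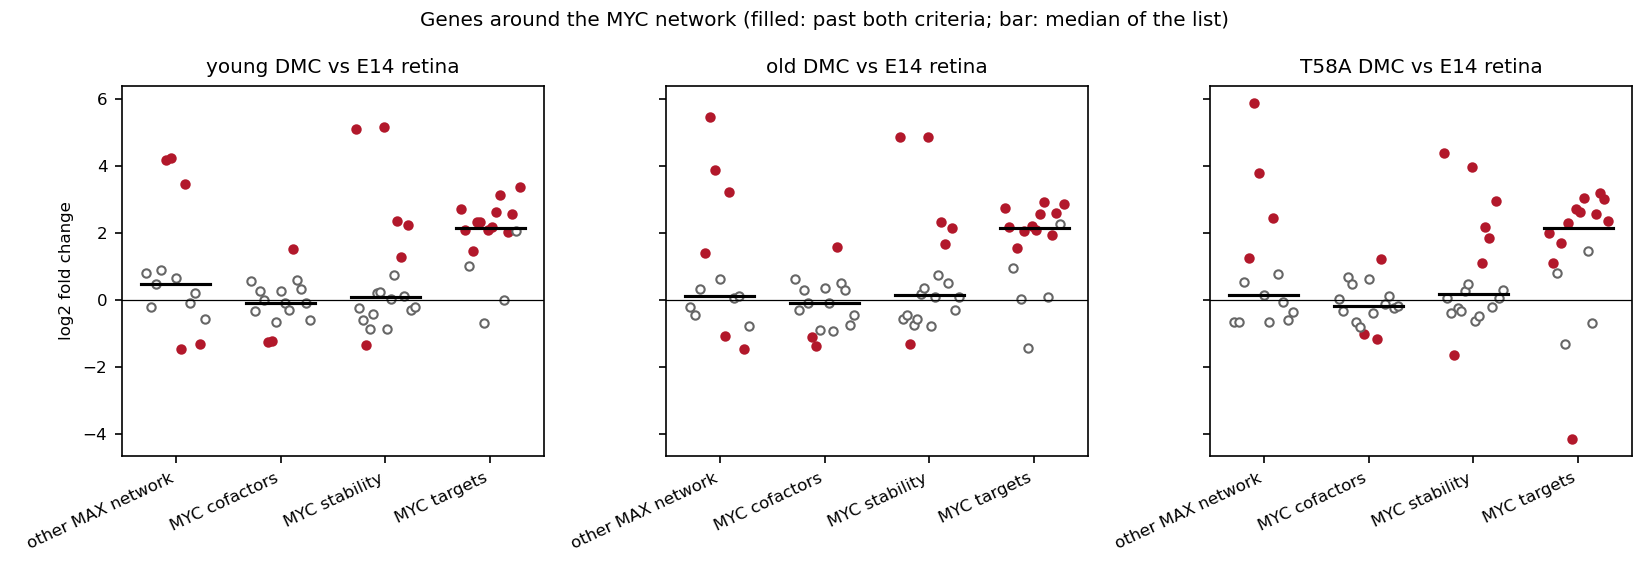
Log2 fold change against retina of the tested genes of 4 lists, in young, old and T58A DMC cells; each point is a gene, filled points passed both criteria and bars are list medians. The MYC target genes have medians of 2.13, 2.13 and 2.14, and those of the other lists lie between −0.20 and 0.48.

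The genes that lie beside chicken MYCN in the RefSeq order did not share its pattern as a block. FAM84A was at 92.7 to 136 normalized counts in retina and at 0 to 23.4 in the lines, with DMC4 the highest, and its log2 fold changes were −5.83, −5.96 and −4.61 (limma adjusted p = 0.00109, 9.66e-04 and 0.00455). DDX1, next to MYCN on one side, was at 2970 to 3620 in retina and 4240 to 6300 in the lines, with log2 fold changes of 0.54, 0.82 and 0.85, under the fold criterion. NBAS (−0.43, −0.26 and −0.49), FAM49A (0.02, 0.25 and −0.70) and VSNL1 (−0.03, −0.14 and −0.40) were not called. DMC4 and DMC6 held the lowest FAM49A levels, 1150 and 2230 against 3510 to 5410 in the other lines.

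The genes whose levels were most like those of the MYC family members over the 9 lines were sought among 9599 genes. For MYCN they were NDEL1 (Pearson r = 0.968), MMP24 (0.961) and TENM4 (0.961), and TENM4 was at 4030 normalized counts in DMC4 and 5180 in DMC6 against 20.2 to 172 in the others. For MYC they were ELL (0.962), CACUL1 (0.962) and PCGF3 (0.956). For MYCL they were ST13P5 (0.980), DHCR7 (0.979) and ST3GAL5 (0.977), and DHCR7 was at 372 in DMC4, 2450 in DMC5 and 199 in DMC6. For hMYCN, after GFP, they were RHBDD2 (0.908), CDA (0.891) and SYPL1 (0.876), with SYPL1 at 11.9 in DMC5 against 62.4 to 408 in the others. These correlations describe 9 lines, which share library depth and scaling with each gene. For the genes of the first 3 sets, DMC4 and DMC6 stood apart from all other lines, DMC5 included. Correlations without these lines were not computed.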

How the data were processed

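Poly(A) RNA was sequenced from 12 libraries with a stranded kit. The authors counted read pairs per gene with featureCounts 2.0.0 on galGal6, divided the counts by TMM factors from edgeR and deposited signal values. All 205632 values above 0 were whole numbers (tolerance 1e-06) divided by 1 of 12 constants, which equalled the TMM factors, but the constant matched the library's own factor for only 8.36%. Reads were therefore recovered and scaled by library total and own TMM factor. Because the deposited unit is not counts, the main fit used no count test. The voom alternative and the counting intervals used the recovered reads.

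Normalized counts, with 1 added, were log2 transformed and modelled with limma 3.58.1 (eBayes with a trend) in R 4.3.3 over 4 groups, and p values were adjusted by Benjamini-Hochberg over 15284 genes. Transgenes were compared by exact permutation. Other scripts used Python 3.11.15. Symbols missing from the table and gene order came from RefSeq of GRCg7b (14940 of 15416 identifiers matched).

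The members and lists were chosen with earlier results of these data known. Named besides the members are FBXW7, GSK3B, AURKA, the 2 genes per list and direction with the largest change among those called against retina in all 3 comparisons, and the 3 genes most correlated with each MYC family member, with exceptions stated. The values of 1 named gene are not reported here. Alternatives were 4 other scalings, pseudocounts of 0.1 and 10, 2 other filters, voom weights, fits of the 6 libraries compared and fits without each library. The script was tested on simulated data.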

Additional observations from a re-analysis of the deposited data

Results flagged for a closer look

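MXI1 was tested between T58A and young DMC cells and had an adjusted p under 0.05, but it was not called, since it stayed under the fold criterion. The log2 fold change was −0.91 (limma adjusted p = 0.0307), with all 3 T58A lines (3232, 3428 and 5255 normalized counts) below all 3 young lines (6414, 7087 and 8531). Against retina MXI1 was 1.01 higher in young and 0.10 higher in T58A lines. The difference was −0.72 to −1.27 over the 22 alternatives, 2 of which called it, and the adjusted p were 0.0184 to 0.191.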

How the results depend on the processing

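Read depth limits chicken MYCN, which rests on 0 to 9 reads in 7 DMC lines, and groups of 3 limit the exact tests. No paired analysis was possible because the groups share no replicate numbers that come from the labels. The alternatives for the 4 lists were added after the data had been seen. Where a value changed, the cause was not tested unless it is stated. With the deposited values as they stand, the log2 differences turned in sign for MXI1 in T58A DMC against E14 retina (−0.27), MNT in old against young (0.068), MXD4 (−0.41), MNT (−0.04) and MLX (−0.042) in T58A against old, and MAX (−0.19) and MXD4 (−0.11) in T58A against young DMC cells. Without TMM factors MXI1 in T58A DMC against retina was −0.14 (−0.135). Members called in T58A against young DMC cells were 1 with the deposited values, against 0. Further MAX network genes called in that comparison were 0 with the deposited values, 2 without TMM factors and 0 in the 6 libraries compared, against 1. MYC targets called there were 1 without the filter, 1 with voom weights and 0 in the 6 libraries, against 2. Of all 15284 genes, 765 were called there with the deposited values, 936 without TMM factors, 798 with voom weights and 0 in the 6 libraries, against 943. Without the filter 804 of 21418 genes were called. MYC cofactors called were 5 in young lines without TMM factors, and in old lines 5 with the deposited values and 6 without TMM factors, against 3. Over all 15284 genes, 6853 were called in young lines without TMM factors, against 6649. In old lines 6581 were called with the deposited values and 6810 without TMM factors, against 6694.

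Fits without each library in turn gave the following ranges. Members called were 3 to 5 in young, 4 to 5 in old and 2 to 4 in T58A DMC against retina. They were 0 to 3 in T58A against old and against young DMC cells, where the highest came without DMC5. Of the 14659 to 15251 genes tested in these fits, 5245 to 7095, 5231 to 7165 and 5385 to 7076 were called against retina. Between T58A and old DMC cells 0 to 2610 genes were called, and between T58A and young 112 to 3463. These counts over all genes also go with the lists. Calls in the lists between T58A and old or young DMC cells were 0 to 2 and 0 to 5 for the MAX network, 0 to 2 and 0 to 2 for cofactors, 0 to 4 and 0 to 4 for stability genes, and 0 to 6 and 0 to 7 for targets. Against retina the cofactor counts were 2 to 3. Signs turned for MYC (−1.73 to 0.75) and MXI1 (−0.12 to 0.23) in T58A DMC against retina, and for MXD1 (−0.084 to 0.11) and MNT (−0.36 to 0.18) in old against young DMC cells. They also turned for MAX (−0.49 to 0.026) and MXD4 (−0.24 to 0.14) in T58A against old, for MAX (−0.27 to 0.25), MXD4 (−0.022 to 0.26) and MNT (−0.002 to 0.38) in T58A against young DMC cells, and for hMYCN per GFP in old against young lines (−0.01 to 0.0531).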
